A study of Mus musculus with 8 samples.

Results

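Glucose uptake and glycolysis were followed through 10 genes, chosen by function: the glucose transporter Slc2a1, the hexokinases Hk1 and Hk2, the phosphofructokinase subunits Pfkl and Pfkp, the regulatory enzyme Pfkfb3, aldolase Aldoa, phosphoglycerate kinase Pgk1, enolase Eno1 and lactate dehydrogenase Ldha. The deposited count table held 9 of the 10 among its 15859 genes, and all 9 were among the 14371 genes tested. Eno1 was not analysed here. The RNA came from distal colon of 8 male mice on a BALB/c x 129SvEV background, either HSF1 WT or HSF1 null. The null is a constitutive deletion in the whole body, and the colon is a mixture of epithelium, stroma, muscle and immune cells, so a level here is a mean over all of them. Of each genotype, 2 mice were untreated and age matched (day 0), and 2 had received azoxymethane (AOM), a carcinogen, at 10 mg/kg by intraperitoneal injection at 8 weeks of age and then, from day 7, drinking water with 1.5% dextran sulfate sodium (DSS), a sulfated sugar polymer toxic to the gut lining, for 5 days (day 15). The sample labels give an age of 10 weeks for all 8, and the series text a slightly lower one. The labels do not give the time from the DSS to sampling, which the study states as 3 days. Polyadenylated RNA was sequenced, and each mouse is 1 library.

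Total counts were 9393945 and 2553348 in the untreated WT libraries, 12440257 and 2675976 in the untreated null libraries, 11097367 and 9247665 in the treated WT libraries, and 7379442 and 7593259 in the treated null libraries. The smallest libraries were thus the second of each untreated group, and their low counts carry the largest counting error. Levels are given as CPM, a gene's count relative to its library's total after scaling by the trimmed mean of M values (TMM), and changes given after rose or fell are log2 values throughout. Hsf1 itself, the gene deleted in the null mice, had 40.5 and 36.5 CPM in the untreated WT mice, 14.0 and 11.9 in the untreated null mice, 50.5 and 45.9 in the treated WT mice, and 13.5 and 9.09 in the treated null mice. Every WT mouse lay above every null mouse, at a log2 fold change of 2.10 (SE 0.30, adjusted p = 0.0137) at day 15. That call was lost without untreated null mouse 1 or 2 or treated WT mouse 2 (adjusted p up to 0.0633). The labelled tissue carried its markers: all 10 of 10 colon epithelium markers were measured, with Krt19 the most abundant, and their summed level was 13569 and 19213 CPM in the untreated WT mice, 22474 and 14309 in the untreated null mice, 17198 and 20479.5 in the treated WT mice, and 34058 and 27575 in the treated null mice. None of these markers was at 0 in any library.

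Glycolysis splits glucose into pyruvate through a chain of cytosolic enzymes, and lactate dehydrogenase then reduces pyruvate to lactate so that the chain can go on without oxygen. Flow through it is set mainly at uptake, at hexokinase and at phosphofructokinase, the last of which is switched on by the sugar phosphate that PFKFB enzymes make. In the colon, mature colonocytes draw much of their energy from butyrate, whereas dividing crypt cells and activated immune cells, neutrophils above all, lean on glycolysis, and several of its genes are textbook targets of the hypoxia factor HIF-1.

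Of these genes Pfkfb3 differed between the genotypes after treatment. PFKFB3 makes fructose-2,6-bisphosphate, the strongest activator of phosphofructokinase, and its gene (chromosome 2, 11471433 to 11554077, minus strand, GRCm38) had 41.8 and 16.3 CPM in the untreated WT mice, 17.0 and 14.0 in the untreated null mice, 53.1 and 92.5 in the treated WT mice, and 10.7 and 18.9 in the treated null mice. The treated WT mice were the highest of the 8, untreated WT mouse 1 came next, and the other untreated WT mouse and all null mice were under 20 CPM. At day 15 the WT and null groups did not overlap, and the level was 4.91-fold higher in WT. The log2 fold change was 2.29 (SE 0.47, adjusted p = 0.0357) by the quasi-likelihood test of edgeR, with a 95% confidence interval of 1.24 to 3.35, and DESeq2 gave an adjusted p of 5.8e-05. A gene is called here when its adjusted p is under 0.05 over all genes tested and its log2 fold change exceeds 1 in size. By this rule 1 of the 9 genes was called at day 15 between the genotypes, against 3.17% of all genes tested (455 genes), or 1.25% when only genes higher in WT are counted. DESeq2 also called 1 of the 9, and 1208 of all genes. In bulk tissue a lower level from fewer cells of a type cannot be told apart from less RNA per cell.

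The Pfkfb3 call rests on few libraries. Its adjusted p was 0.0772 without untreated null mouse 1, 0.0774 without untreated null mouse 2, 0.173 without treated WT mouse 2 and 0.230 without treated null mouse 1, so each of these ends the call. The Pfkfb3 log2 fold change without 1 library ran from 1.84 to 2.76, and WT was the higher group in each of the 8 fits. With the replicate number as a block the adjusted p was 0.0540, and with the 4 treated libraries alone 0.0844. Over 18 alternatives it ran from 5.8e-05 to 0.230, and the gene passed in 12 of them.

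Neutrophil markers and macrophage and monocyte markers were both high in the treated WT mice, as Pfkfb3 was. Of 10 neutrophil markers listed 9 were measured, Ly6g was not analysed here, and their summed level was 14.8 and 5.16 CPM in the untreated WT mice, 7.14 and 6.83 in the untreated null mice, 142 and 558 in the treated WT mice, and 9.15 and 38.8 in the treated null mice. S100a9 was the most abundant, and S100a8, Cxcr2, Mmp8, Retnlg and Trem1 were at 0 in at least 1 library. At day 15 between the genotypes, 4 of the 9 were called, all higher in WT, against 1.25% of all genes. With treatment 6 of them were called in WT and 1 in null mice, all higher, against 3.47% and 5.30% of all genes. In untreated WT mouse 1, where Pfkfb3 stood at 41.8 CPM, the neutrophil sum was 14.8 CPM. Of macrophage and monocyte markers 10 of 10 were measured, with Lyz2 the most abundant and none at 0 in any library, and their summed level was 1136 and 484 CPM in the untreated WT mice, 514 and 610.2 in the untreated null mice, 1544 and 2428 in the treated WT mice, and 413 and 940.0 in the treated null mice. The 4 mice with the highest sums, treated WT mice 2 and 1, untreated WT mouse 1 and treated null mouse 2, were in the same order the 4 with the highest Pfkfb3 levels. At day 15 between the genotypes 2 of the 10 were called, both higher in WT, where 1.25% of all genes were. With treatment 4 were called in WT, all higher, against 3.47% of all genes. In null mice edgeR called 0 and DESeq2 2, where edgeR called 11.8% and DESeq2 2203 of all 14371 genes. An unadjusted p under 0.05 was reached by 2 of the 10 in null mice, against 32.6% of all genes. The part of either marker list in the Pfkfb3 difference was not tested.

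From day 0 to day 15 in WT mice, the Pfkfb3 log2 fold change was 1.28 (SE 0.46, adjusted p = 0.104), with both treated mice above both untreated ones. It missed the threshold in edgeR, while DESeq2 gave an adjusted p of 0.0350. In null mice the same change was -0.080 (SE 0.47, adjusted p = 0.923), with overlapping groups. The difference between these changes was 1.36 (SE 0.65, adjusted p = 0.608), so the response of Pfkfb3 to treatment is not shown to differ between the genotypes. At day 0 the genotypes overlapped, with a log2 fold change of 0.93 (SE 0.47, adjusted p = 0.794). With 1 library left out, the WT change ran from 0.82 to 2.16 and the difference between the changes from 0.89 to 2.24. In the same fits the day 0 value ran from 0.056 to 1.39 and the change in null mice from -0.55 to 0.27.

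**Figure D1:**
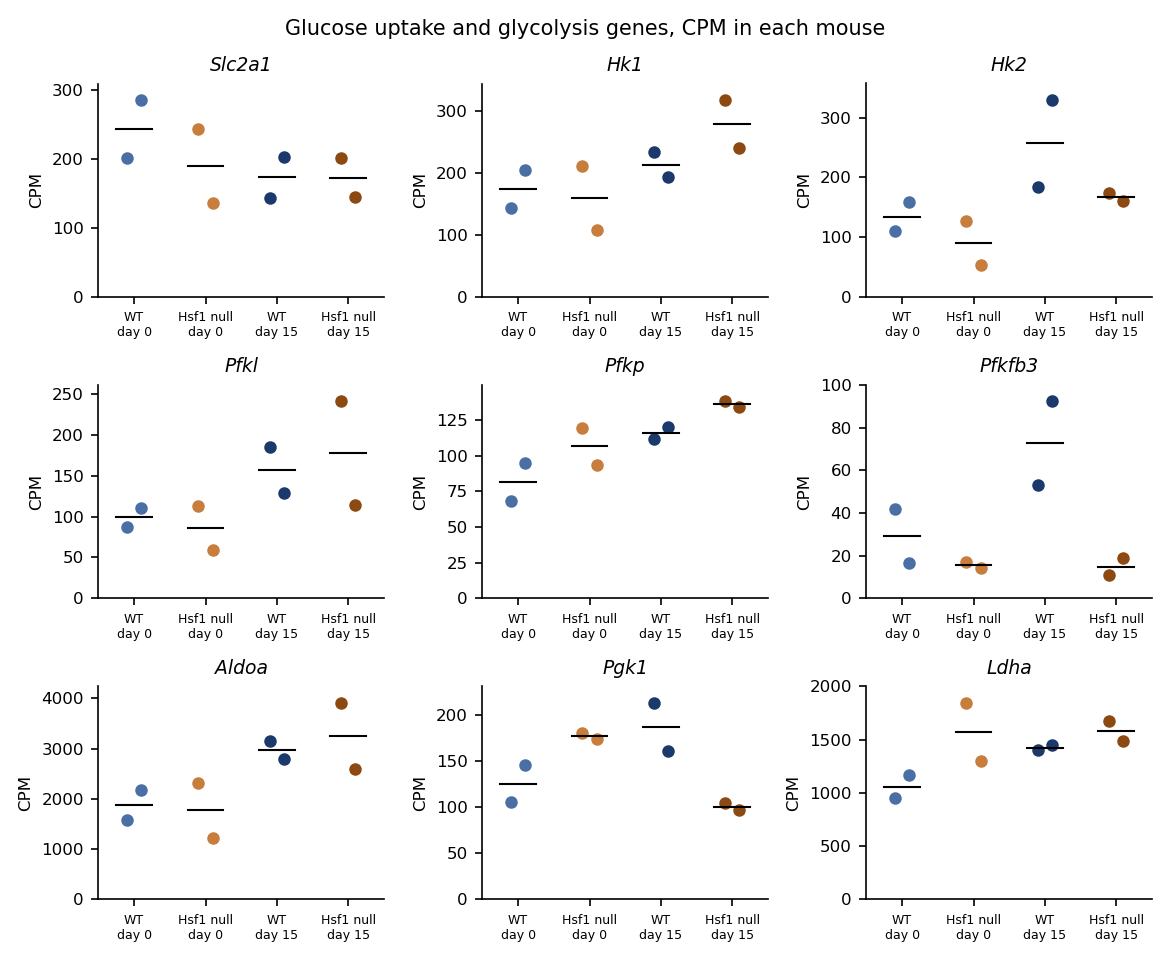
CPM (vertical axes, from 0) of the 9 measured genes of glucose uptake and glycolysis in each of the 4 groups (horizontal axes), with 1 point a mouse and a line at the mean of 2. The treated WT mice have the highest Pfkfb3 levels, 53.1 and 92.5 CPM, and the treated null mice the lowest Pgk1 levels, 104 and 96.7 CPM.

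Glucose enters through Slc2a1 (GLUT1), the widely expressed basal transporter, which had 201 and 285 CPM in the untreated WT mice, 244 and 135 in the untreated null mice, 143 and 202 in the treated WT mice, and 201 and 144 in the treated null mice. The groups overlapped in every pairwise comparison, and the lowest and highest level both came from untreated mice. Its log2 fold change was 0.0016 (SE 0.34, adjusted p = 0.998) between the genotypes at day 15, with a 95% interval of -0.76 to 0.76, and -0.49 (SE 0.34, adjusted p = 0.381) from day 0 to day 15 in WT. It was -0.14 (SE 0.34, adjusted p = 0.805) in null mice, so Slc2a1 passed the test in none of the comparisons.

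Hexokinase traps glucose in the cell as glucose-6-phosphate. Hk1, the isozyme of most tissues, had 143 and 204 CPM in the untreated WT mice, 211 and 107 in the untreated null mice, 233 and 193 in the treated WT mice, and 317 and 239 in the treated null mice. Treated null mice were the highest, above both treated WT and both untreated null mice, while the WT groups overlapped. The log2 fold change with treatment was 0.80 (SE 0.34, adjusted p = 0.137) in null mice and 0.30 (SE 0.34, adjusted p = 0.603) in WT mice, and neither passed.
Hk2, the isozyme that is induced in growing and activated cells, had 109.8 and 158 CPM in the untreated WT mice, 127 and 52.8 in the untreated null mice, 185 and 329.6 in the treated WT mice, and 174 and 161 in the treated null mice. Treated WT mice were above both treated null mice and both untreated WT mice, chiefly through treated WT mouse 2, and in null mice both treated levels exceeded both untreated ones. The changes were 0.94 (SE 0.41, adjusted p = 0.171) with treatment in WT, 0.88 (SE 0.41, adjusted p = 0.167) with treatment in null mice and 0.62 (SE 0.41, adjusted p = 0.389) between the genotypes at day 15. Without untreated null mouse 1, Hk1 and Hk2 were both called higher with treatment in null mice, at adjusted p values of 0.0427 (log2 fold change 1.38) and 0.0450 (1.66). Over 18 alternatives these values ran from 0.0285 to 0.570 for Hk1 and from 0.0450 to 0.637 for Hk2.

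Phosphofructokinase commits the sugar to glycolysis. Pfkl, its liver-type subunit, had 86.8 and 111 CPM in the untreated WT mice, 114 and 58.9 in the untreated null mice, 186 and 129 in the treated WT mice, and 242 and 114 in the treated null mice. Both treated groups were above their untreated counterparts, in null mice by a narrow margin, and treated WT and null mice overlapped because treated null mouse 1 was the highest and treated null mouse 2 the lowest of the 4. Its log2 fold change with treatment was 1.03 (SE 0.41, adjusted p = 0.114) in null mice and 0.67 (SE 0.41, adjusted p = 0.311) in WT mice.
Pfkp, the platelet-type subunit, had 68.5 and 95.3 CPM in the untreated WT mice, 119.9 and 93.4 in the untreated null mice, 112 and 121 in the treated WT mice, and 138 and 134 in the treated null mice. The spread was small, with both treated null mice above all others and both treated WT mice above the untreated WT mice. With treatment it differed by 0.51 (SE 0.25, adjusted p = 0.208) in WT and 0.35 (SE 0.24, adjusted p = 0.350) in null mice, and between the genotypes at day 15 by -0.23 (SE 0.24, adjusted p = 0.601).

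Aldolase cleaves fructose-1,6-bisphosphate into trioses. Aldoa, its ubiquitous isozyme, had 1578 and 2184 CPM in the untreated WT mice, 2313 and 1225 in the untreated null mice, 3158 and 2797 in the treated WT mice, and 3913 and 2594 in the treated null mice. All 4 treated mice were above all 4 untreated mice, and the treated genotypes overlapped. The log2 fold change with treatment was 0.66 (SE 0.40, adjusted p = 0.310) in WT and 0.88 (SE 0.40, adjusted p = 0.158) in null mice, so a difference with no overlap did not pass the test.

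Phosphoglycerate kinase makes the first ATP of the pathway. Pgk1 (chromosome X, 106187100 to 106203699, plus strand) had 105 and 146 CPM in the untreated WT mice, 181 and 174 in the untreated null mice, 213 and 161 in the treated WT mice, and 104 and 96.7 in the treated null mice. Both treated null mice were below every other mouse, though treated null mouse 1 only just below untreated WT mouse 1. Both treated WT mice were above both untreated WT mice, and both untreated null mice were above both untreated WT mice. At day 15 the log2 fold change between WT and null mice was 0.90 (SE 0.25, adjusted p = 0.0761), which missed the threshold in edgeR. DESeq2 gave an adjusted p of 0.0367 with a fold change under the limit for a call, and the range over 18 alternatives was 0.0277 to 0.274. With treatment Pgk1 differed by 0.58 (SE 0.25, adjusted p = 0.166) in WT mice and by -0.82 (SE 0.25, adjusted p = 0.0576) in null mice. The difference between these opposite changes was 1.40 (SE 0.36, adjusted p = 0.380) in edgeR, with an adjusted p of 0.0812 in DESeq2, and passed in neither. Total counts in place of TMM made Pgk1 a called gene at day 15.

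Enolase, the step after phosphoglycerate mutase, is seen here through Eno1b, Eno2 and Eno3, of which Eno3 was the most abundant per kilobase of exon and is given with the other glycolytic enzymes. Eno1b, a near-identical copy of Eno1, ranged from 10.4 to 37.8 CPM, and whether its reads came from Eno1 transcripts was not tested. Eno2, the neuronal isozyme, ranged from 5.91 to 12.1 CPM.

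Lactate dehydrogenase ends the chain. Ldha, the subunit that predominates in glycolytic tissue, had 948 and 1164 CPM in the untreated WT mice, 1847 and 1298 in the untreated null mice, 1402 and 1449 in the treated WT mice, and 1679 and 1487 in the treated null mice. Untreated null mice were above untreated WT mice, treated null mice were above treated WT mice, and treated WT mice were above untreated WT mice. The log2 fold changes were -0.58 (SE 0.30, adjusted p = 0.794) between WT and null mice at day 0, -0.15 (SE 0.30, adjusted p = 0.803) at day 15 and 0.43 (SE 0.30, adjusted p = 0.384) with treatment in WT. In null mice the groups overlapped, at 0.0090 (SE 0.30, adjusted p = 0.987).

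**Figure D2:**
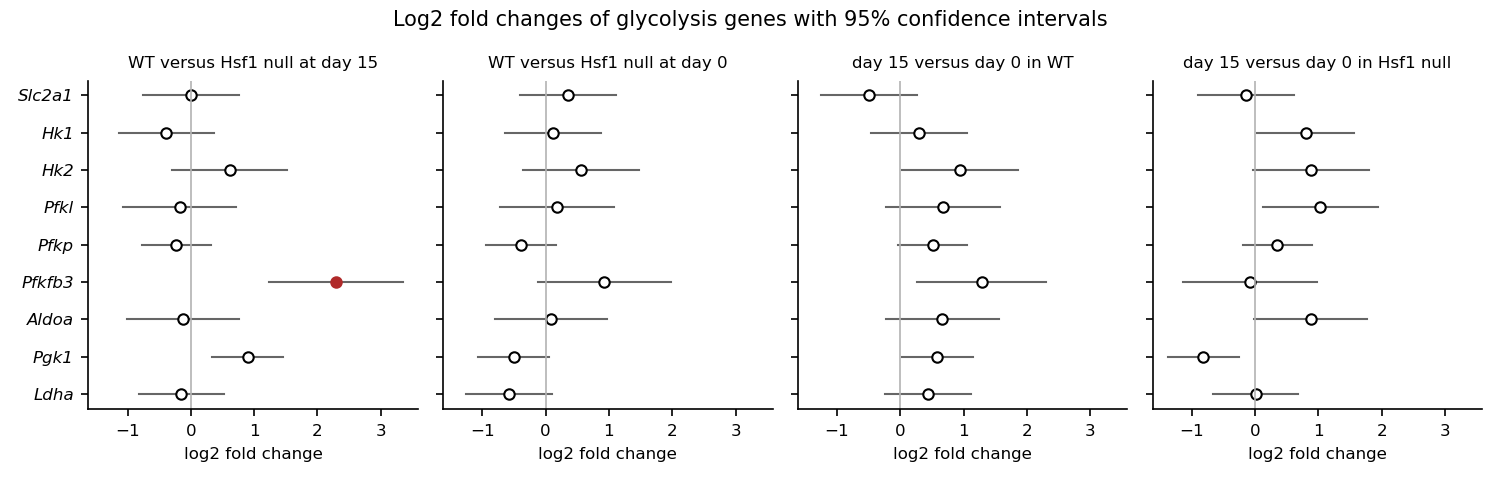
Log2 fold change of each gene on the horizontal axis, first group over second, in the 4 pairwise comparisons, with 95% confidence intervals as lines, filled points for an adjusted p under 0.05 over all genes tested and open points for the rest. The filled point is Pfkfb3 between the genotypes at day 15, at 2.29.

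Between the genotypes at day 15, which asks how the treated colon differs without HSF1, the 9 genes did not move one way. Their log2 fold changes were positive (higher in WT) for 4 and negative for 5, with a median of -0.13 against 0.035 over all genes tested. With total counts as the scaling, Pfkl, Aldoa and Ldha turned from negative to positive, and the median over all genes moved to 0.18. The groups did not overlap for 6 of the 9, 3 with WT on top (Hk2, Pfkfb3 and Pgk1) and 3 with null on top (Hk1, Pfkp and Ldha), against 54.8% of all genes. An unadjusted p under 0.05 was reached by 2 of the 9 (Pfkfb3 and Pgk1), against 23.2% of all genes. Called genes lower in WT made up 1.91% of all genes, and genes with an adjusted p under 0.05 at any fold change 3.17%.

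At day 0, the same comparison without treatment, edgeR called 0 of the 9 genes and 0.00% of all genes. None of the 9 reached an unadjusted p under 0.05, against 6.29% of all genes. DESeq2 called 0 of the 9 genes and 18 of all genes. The groups did not overlap for 2 of the 9, Pgk1 and Ldha, both lower in WT, against 37.1% of all genes. The median log2 fold change was 0.12 against 0.011.

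From day 0 to day 15 in WT mice, 8 of the 9 genes had a positive log2 fold change, as had 7220 of all 14371 genes. Slc2a1 had a negative one. Both treated mice were above both untreated mice for 7 of the 9, all but Slc2a1 and Hk1. That held for 4456 of all 14371 genes, and 62.5% of all genes had no overlap in either direction. The median was 0.58 against 0.0046 over all genes. Even so, edgeR called 0 of the 9 and DESeq2 1 (Pfkfb3), where DESeq2 called 1737 of all 14371 genes. An unadjusted p under 0.05 was reached by 3 of the 9 (Hk2, Pfkfb3 and Pgk1), against 27.6% of all genes. Of all genes, 7.74% were called in WT with treatment, 3.47% higher and 4.27% lower, and 8.13% had an adjusted p under 0.05.

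From day 0 to day 15 in null mice, 6 of the 9 were positive, as were 7484 of all 14371 genes. The groups did not overlap for 6 of the 9, of which Hk1, Hk2, Pfkl, Pfkp and Aldoa were higher and Pgk1 lower after treatment, against 61.3% of all genes. The median was 0.35 against 0.052. EdgeR called 0 of the 9 and DESeq2 0, where DESeq2 called 2203 of all 14371 genes. An unadjusted p under 0.05 was reached by 3 of the 9 (Hk1, Pfkl and Pgk1), against 32.6% of all genes. Without untreated null mouse 1 the count called was 2 (Hk1 and Hk2), and without untreated null mouse 2 no gene in the whole table was called in this comparison. Of all genes, 11.8% were called with treatment in null mice, 5.30% higher and 6.48% lower, and 13.3% had an adjusted p under 0.05.

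The difference between the genotypes in their response to treatment was called by edgeR for 0 of the 9 genes and for 0.00696% of all genes (1 gene). DESeq2 called 0 of the 9 genes and 120 of all genes. An unadjusted p under 0.05 was reached by 1 of the 9, Pgk1, against 8.62% of all genes.

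The treated libraries also differed from the untreated ones in base composition. Across 13867 genes, the rank correlation of a gene's deviation from its mean over libraries with its GC content was -0.22 and -0.13 in the untreated WT libraries and -0.24 and -0.58 in the untreated null libraries. It was 0.41 and 0.15 in the treated WT libraries and 0.43 and 0.18 in the treated null libraries. These are descriptions across genes, which are not independent replicates. The glycolysis genes had a median GC content of 51.9% against 49.9%, with 7 of 9 above the median of all genes. With GC and length offsets in the fit, an alternative chosen after seeing the data, the numbers of the 9 genes called were the same in all 5 comparisons.

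To compare levels between genes, CPM were divided by the length of the gene's annotated exons in kilobases. On that scale, as means over the 8 mice, Aldoa stood at 849, Ldha at 426, Pgk1 at 65.7, Slc2a1 at 55.5, Hk2 at 27.2, Hk1 at 24.1, Pfkl at 19.5, Pfkp at 8.23 and Pfkfb3 at 4.37 CPM per kilobase. Aldoa and Ldha thus had the highest mean levels per kilobase and Pfkfb3 the lowest. By mouse, Pfkfb3 was above Pfkp in untreated WT mouse 1 (5.52 against 5.11 CPM per kilobase) and treated WT mouse 2 (12.2 against 8.99), and below it in the other 6. Of the neighbours in this order, Ldha and Pgk1 were apart in their ranges over the 8 mice, and each of the other neighbouring pairs overlapped. Dividing by the longest coding transcript put Hk1 (48.2) above Hk2 (29.4), so the order of these isozymes depends on the length used. Of the other glycolytic enzymes, Gapdh stood at 347, Tpi1 at 228, Pkm at 189, Eno3 at 175, Gpi1 at 113, Eno1b at 11.4 and Eno2 at 1.82 CPM per kilobase of exon.

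Shares within an isozyme family do not depend on library scaling. Ldha made up nearly all of the Ldha plus Ldhb level per kilobase of exon, at 98.1 and 98.8 percent in the untreated WT mice, 98.8 and 98.6 in the untreated null mice, 98.5 and 98.9 in the treated WT mice, and 98.8 and 99.1 in the treated null mice. The spread among the 8 mice was small in every group.
The share of Hk2 in Hk1 plus Hk2 was 52.3 and 52.6 percent in the untreated WT mice, 46.2 and 41.4 in the untreated null mice, 53.1 and 71.0 in the treated WT mice, and 44.0 and 49.0 in the treated null mice. Every WT mouse had a larger Hk2 share than every null mouse, by a margin that was widest for treated WT mouse 2. On the longest coding transcript the Hk2 share was lower in each mouse, at 37.3 and 37.6 percent in the untreated WT mice, 31.8 and 27.7 in the untreated null mice, 38.0 and 57.0 in the treated WT mice, and 29.9 and 34.3 in the treated null mice.
The share of Pfkl in Pfkl, Pfkp and Pfkm was 61.6 and 62.0 percent in the untreated WT mice, 55.9 and 48.6 in the untreated null mice, 68.0 and 62.4 in the treated WT mice, and 70.1 and 52.3 in the treated null mice. Untreated WT mice were above untreated null mice and, narrowly, below treated WT mice, so both WT groups were above the untreated null mice. The treated null mice overlapped every other group, and Pfkl was the largest of the 3 in every mouse. With the longest coding transcript as the length, Pfkp exceeded Pfkl in null mouse 2 of both days.
Between groups of 2 mice an exact two-sided permutation test cannot go below a p of 1 in 3, and the shares were not tested, neither between groups nor between the genotypes over both days.

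The other genes of carbohydrate metabolism were taken from 9 lists chosen by function, with 91 of 95 genes tested. Between the genotypes at day 15, 6 of the 91 were called, 1 higher and 5 lower in WT, where 3.17% of all genes were called, 1.25% higher and 1.91% lower. The median log2 fold change was -0.11 against 0.035 over all genes. With treatment in WT mice 11 were called, 3 higher and 8 lower, where 7.74% of all genes were called, and the median was -0.20 against 0.0046. In null mice 14 were called, 4 higher and 10 lower, where 11.8% of all genes were called, with a median of 0.089 against 0.052. These shares of all genes are the background of each list count given next. For an unadjusted p under 0.05 the shares of all genes were 23.2% at day 15, 27.6% in WT and 32.6% in null mice. DESeq2 called 1208, 1737 and 2203 of all 14371 genes in these comparisons. At day 0 edgeR called 0 and DESeq2 0, with 4 of the 91 at an unadjusted p under 0.05, against 6.29% of all genes. For the difference between genotypes in the response edgeR called 0 and DESeq2 2, where DESeq2 called 120 of all genes. An unadjusted p under 0.05 was reached there by 18 of the 91, against 8.62% of all genes. So none of the differences named next is shown by edgeR to depend on genotype in its response to treatment. Each call named next ended without at least 1 library, named with it. With the replicate number as a block, Pck1 and Slc2a13 were no longer called at day 15, nor Mpc1 and Pdp2 with treatment in WT, and 14 of 14 held in null mice. With GC and length offsets all but Slc16a1 held in WT, and in null mice 5 of 14 held, namely Egln2, Hif1a, Mpc1, Pgam1 and Rpia. The fold changes in null mice also move with these offsets, most of them towards 0, and their values with offsets stand with each gene.

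Of the other glycolytic enzymes, Eno3 and Pgam1 are described here. Eno3, the enolase best known from muscle, had 187 and 359.7 CPM in the untreated WT mice, 613 and 458 in the untreated null mice, 85.9 and 43.2 in the treated WT mice, and 358 and 328 in the treated null mice. The treated WT mice were below all other mice, and the untreated groups did not overlap, with null above WT. At day 15 the log2 fold change was -2.41 (SE 0.41, adjusted p = 0.0219), and with treatment in WT -2.08 (SE 0.40, adjusted p = 0.0182). The day 15 call was lost without untreated null mouse 1 or 2, treated WT mouse 2 or treated null mouse 1 (adjusted p up to 0.124), and the WT call without untreated WT mouse 2 or treated WT mouse 2 (adjusted p up to 0.132, log2 fold change from -2.66 to -1.52 over the 8 fits).
Smooth muscle markers were also lower in treated WT mice: 6 of 6 were measured, Acta2 was the most abundant, none was at 0, and the summed level was 6899 and 9456 CPM in the untreated WT mice, 6756 and 6624 in the untreated null mice, 3462 and 2025 in the treated WT mice, and 5013 and 5819 in the treated null mice. With treatment in WT 5 of the 6 were called, all lower, against 4.27% of all genes. In null mice, where edgeR called 6.48% of all genes lower, edgeR and DESeq2 called 0, with 2 at an unadjusted p under 0.05 and a median of -0.35 there and -1.79 in WT. At day 0 the smooth muscle sum was higher in both WT than in both null mice, the opposite order to Eno3. The mature colonocyte sum, given below with Pck1, was higher in null than in WT mice at day 0 and at day 15, as Eno3 was. The part of either list in the Eno3 difference was not tested.

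Pgam1, the phosphoglycerate mutase of most tissues, had 79.1 and 132 CPM in the untreated WT mice, 74.3 and 114 in the untreated null mice, 86.6 and 54.1 in the treated WT mice, and 31.6 and 27.7 in the treated null mice. The treated null mice were below all other mice, and the fall with treatment in null mice passed at -1.66 (SE 0.35, adjusted p = 0.0211). That call was lost without untreated null mouse 2 or treated null mouse 1 or 2 (adjusted p up to 0.180, log2 fold change from -1.94 to -1.33 over the 8 fits), and with GC and length offsets the change was -2.05 (adjusted p = 0.0286). Gapdh, which oxidises glyceraldehyde-3-phosphate, had 1191 and 1708 CPM in the untreated WT mice, 1036 and 779.8 in the untreated null mice, 2847 and 1807 in the treated WT mice, and 894 and 1207 in the treated null mice. Treated WT mice were above treated null mice, at 1.15 (SE 0.36, adjusted p = 0.101). Hk3, the hexokinase of myeloid cells, was at 0 in 1 untreated null library and reached 8.87 CPM in treated WT mouse 2, and Hkdc1 was under 5 CPM in every mouse.
Gpi1, which isomerises glucose-6-phosphate, had 526 and 616 CPM in the untreated WT mice, 644 and 401 in the untreated null mice, 1008 and 754 in the treated WT mice, and 1069 and 828 in the treated null mice, and Pkm, pyruvate kinase, had 731 and 756 CPM in the untreated WT mice, 910.4 and 538 in the untreated null mice, 1192 and 1338 in the treated WT mice, and 1164 and 932 in the treated null mice. For both genes all treated mice were above all untreated mice. The log2 fold changes with treatment were 0.63 (SE 0.32, adjusted p = 0.236) in WT and 0.86 (SE 0.32, adjusted p = 0.0989) in null mice for Gpi1, and 0.77 (SE 0.32, adjusted p = 0.152) and 0.53 (SE 0.32, adjusted p = 0.272) for Pkm. Tpi1, the triose isomerase, ranged from 490.4 to 784 CPM, and the scarcer isozymes Pfkm, Aldoc and Ldhb from 7.91 to 18.6, 13.3 to 36.9 and 6.42 to 10.7 CPM.

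Of the other hexose transporters 10 of 11 were measured, and Slc2a2 was not analysed here. Slc5a1, the sodium-coupled glucose transporter of the gut lining and the most abundant of the list, had 212 and 256 CPM in the untreated WT mice, 319 and 294 in the untreated null mice, 149 and 114 in the treated WT mice, and 284 and 198 in the treated null mice. Its treated WT levels were the lowest, and it passed in none of the comparisons, at -0.83 (SE 0.27, adjusted p = 0.0806) with treatment in WT and -0.88 (SE 0.27, adjusted p = 0.0952) between the genotypes at day 15. Slc2a3, a high-affinity transporter of neurons and leukocytes, was at most 12.3 CPM, in treated WT mouse 2.
The gene of this list that was called was Slc2a13, a carrier of myo-inositol, with 33.0 and 37.7 CPM in the untreated WT mice, 41.4 and 56.8 in the untreated null mice, 8.79 and 7.92 in the treated WT mice, and 20.5 and 20.6 in the treated null mice. It was lower in treated than in untreated mice of both genotypes and lowest in treated WT mice. It fell with treatment by 2.07 (SE 0.29, adjusted p = 0.00680) in WT and by 1.25 (SE 0.28, adjusted p = 0.0245) in null mice on the log2 scale, and the genotypes differed by -1.30 (SE 0.28, adjusted p = 0.0441) at day 15. The WT call was lost without treated WT mouse 2 (adjusted p up to 0.0530, log2 fold change from -2.17 to -1.96 over the 8 fits), the null call without untreated null mouse 2 or treated null mouse 1 or 2 (adjusted p up to 0.179, log2 fold change from -1.47 to -1.01 over the 8 fits), and the day 15 call without any 1 of the 8 libraries (adjusted p up to 0.211). In null mice the change was -0.83 (adjusted p = 0.0849) with GC and length offsets.
The PFKFB isozymes and TIGAR, which sets fructose-2,6-bisphosphate against PFKFB3, were 4 genes of which edgeR and DESeq2 called 0 in each comparison, with 1 at an unadjusted p under 0.05 at day 15 between the genotypes, 1 with treatment in WT and 0 in null mice, at day 0 and for the difference in response. Their median at day 15 was -0.35.

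Lactate leaves cells mainly through Slc16a3 (MCT4), the exporter of glycolytic cells, whereas Slc16a1 (MCT1) also carries butyrate into colonocytes. Slc16a3 had 12.7 and 11.5 CPM in the untreated WT mice, 14.4 and 5.03 in the untreated null mice, 86.0 and 67.2 in the treated WT mice, and 20.6 and 16.9 in the treated null mice. The treated WT mice stood far above the other 6, and the treated null mice were a little above the untreated null mice. Slc16a3 rose with treatment in WT by 2.65 (SE 0.42, adjusted p = 0.0103) on the log2 scale and was higher in WT than in null mice at day 15 by 2.03 (SE 0.40, adjusted p = 0.0321), while in null mice it differed by 0.85 (SE 0.41, adjusted p = 0.179). The difference between these responses was 1.80 (SE 0.57, adjusted p = 0.453) and did not pass. The day 15 call was lost without untreated null mouse 1 or 2, treated WT mouse 1 or 2 or treated null mouse 1 or 2 (adjusted p up to 0.163, log2 fold change from 1.84 to 2.20 over the 8 fits), and the WT call without untreated WT mouse 2 (adjusted p up to 0.0694, log2 fold change from 2.46 to 2.82 over the 8 fits).
Slc16a1 had 265 and 361 CPM in the untreated WT mice, 325 and 326 in the untreated null mice, 127 and 97.8 in the treated WT mice, and 181 and 123 in the treated null mice. Treated mice of both genotypes were below the untreated mice. Slc16a1 fell by 1.47 (SE 0.28, adjusted p = 0.0182) in WT and by 1.10 (SE 0.28, adjusted p = 0.0350) in null mice. The WT call was lost without untreated WT mouse 2 or treated WT mouse 2 (adjusted p up to 0.142, log2 fold change from -1.68 to -1.22 over the 8 fits), and the null call without untreated null mouse 1 or 2 or treated null mouse 1 or 2 (adjusted p up to 0.187, log2 fold change from -1.41 to -0.84 over the 8 fits). Under GC and length offsets these changes were -1.26 (adjusted p = 0.0610) and -0.54 (adjusted p = 0.366). Per kilobase of exon, the share of Slc16a3 in the sum of both transporters was 3.85 and 2.59 percent in the untreated WT mice, 3.55 and 1.27 in the untreated null mice, 36.0 and 36.4 in the treated WT mice, and 8.66 and 10.3 in the treated null mice. The treated WT mice had the largest shares and the treated null mice came next.

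Pyruvate enters mitochondria through the carrier made of MPC1 and MPC2. Mpc1 had 31.5 and 71.1 CPM in the untreated WT mice, 61.2 and 82.3 in the untreated null mice, 18.4 and 10.1 in the treated WT mice, and 5.58 and 5.88 in the treated null mice. All treated mice were below all untreated mice, and treated null mice were the lowest. Mpc1 fell with treatment by 1.81 (SE 0.43, adjusted p = 0.0326) in WT and by 3.63 (SE 0.47, adjusted p = 0.0123) in null mice on the log2 scale. The WT call was lost without untreated WT mouse 2, untreated null mouse 1 or 2 or treated WT mouse 2 (adjusted p up to 0.233, log2 fold change from -2.31 to -1.12 over the 8 fits), and the null call without untreated null mouse 2 (adjusted p up to 0.123, log2 fold change from -3.84 to -3.41 over the 8 fits). Mpc2 had 95.5 and 213 CPM in the untreated WT mice, 163 and 194 in the untreated null mice, 80.7 and 52.8 in the treated WT mice, and 64.4 and 59.2 in the treated null mice. It was lower in treated than in untreated mice of both genotypes and passed in null mice, at -1.53 (SE 0.37, adjusted p = 0.0294), a call lost without untreated null mouse 1 or 2 or treated null mouse 1 or 2 (adjusted p up to 0.197, log2 fold change from -1.65 to -1.40 over the 8 fits). With GC and length offsets the change in null mice was -3.61 (adjusted p = 0.0165) for Mpc1 and -0.95 (adjusted p = 0.177) for Mpc2.
Of the phosphatases that activate pyruvate dehydrogenase, Pdp1 fell with treatment in null mice by 2.10 (SE 0.45, adjusted p = 0.0220) and Pdp2 in WT mice by 2.03 (SE 0.52, adjusted p = 0.0431). The treated mice were below the untreated mice of the same genotype in both cases. The Pdp1 call was lost without untreated null mouse 2 or treated null mouse 2 (adjusted p up to 0.178, log2 fold change from -2.54 to -1.70 over the 8 fits) and the Pdp2 call without untreated WT mouse 1 or 2 or treated WT mouse 1 or 2 (adjusted p up to 0.175, log2 fold change from -2.25 to -1.84 over the 8 fits). With offsets the Pdp1 change was -1.22 (adjusted p = 0.131). In all, 4 of 15 genes of lactate and pyruvate handling were called with treatment in WT, 4 in null mice and 1 between the genotypes at day 15, against 7.74%, 11.8% and 3.17% of all genes. The medians were -0.88, -0.51 and 0.11.

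**Figure D3:**
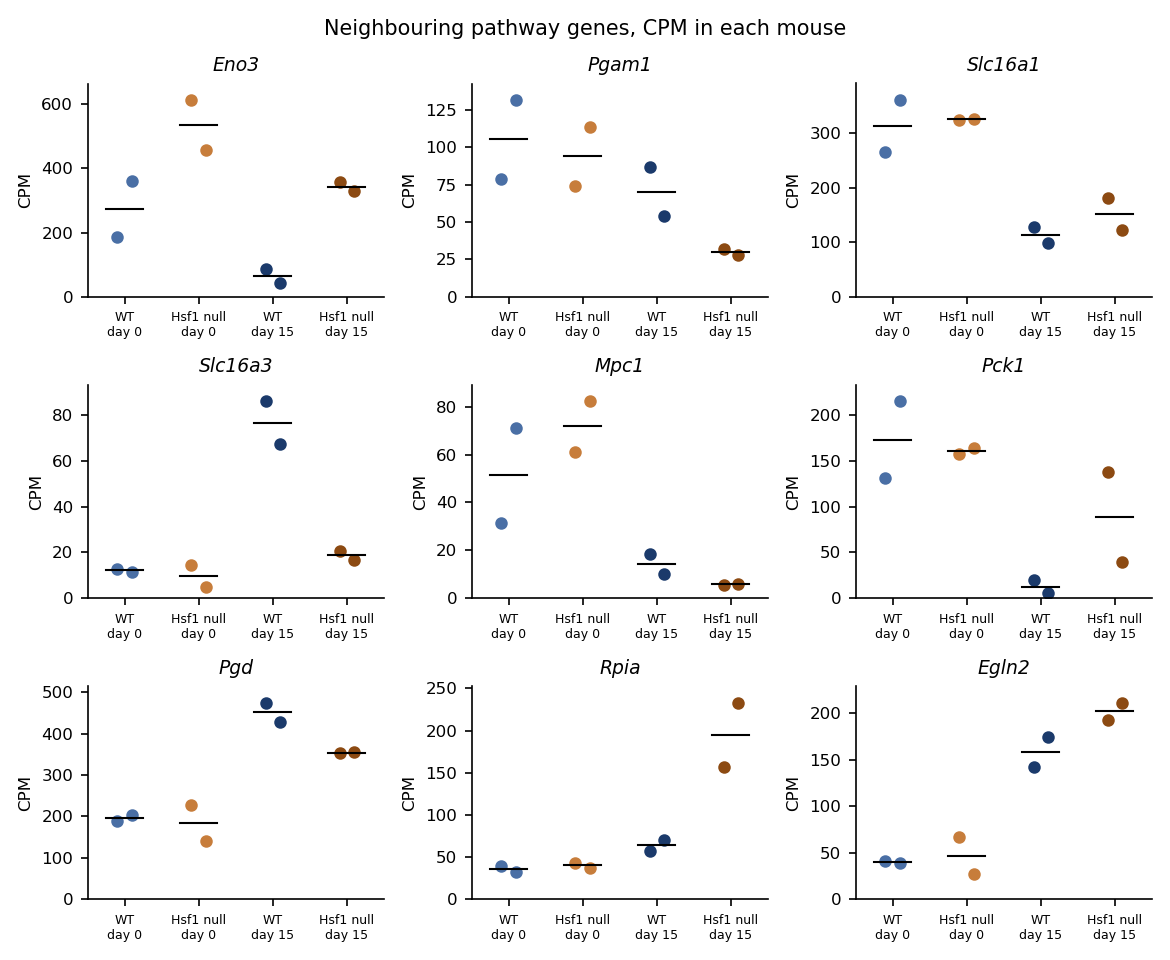
CPM (vertical axes, from 0) of 9 neighbouring genes that passed the test in at least 1 comparison, by group (horizontal axes), with 1 point a mouse and a line at the mean of 2. Eno3 and Pck1 are lowest in the treated WT mice, where Slc16a3 is highest, at 86.0 and 67.2 CPM.

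Gluconeogenesis runs the chain backwards. Pck1, which makes phosphoenolpyruvate from oxaloacetate, had 132 and 216 CPM in the untreated WT mice, 158 and 165 in the untreated null mice, 19.3 and 5.18 in the treated WT mice, and 138 and 39.5 in the treated null mice. Treated WT mice were the lowest, and treated null mice were below the untreated null mice but differed widely from each other. Pck1 fell with treatment in WT by 3.81 (SE 0.68, adjusted p = 0.0145) and was lower in WT than in null mice at day 15, at -2.84 (SE 0.66, adjusted p = 0.0492). The WT call was lost without untreated WT mouse 2 or treated WT mouse 2 (adjusted p up to 0.0698, log2 fold change from -5.06 to -3.16 over the 8 fits), and the day 15 call without untreated WT mouse 1 or 2, untreated null mouse 1 or 2, treated WT mouse 2 or treated null mouse 1 (adjusted p up to 0.275, log2 fold change from -4.09 to -1.68 over the 8 fits). Pcx, pyruvate carboxylase, fell with treatment in WT by 1.48 (SE 0.35, adjusted p = 0.0326), with both treated below both untreated mice, a call lost without untreated WT mouse 1 or 2, untreated null mouse 1 or 2 or treated WT mouse 1 or 2 (adjusted p up to 0.182, log2 fold change from -1.64 to -1.35 over the 8 fits). Of 6 genes tested, 2 were called with treatment in WT and 1 between the genotypes at day 15, against 7.74% and 3.17% of all genes. In null mice with treatment edgeR called 0 and DESeq2 0, with 3 at an unadjusted p under 0.05.
Mature colonocyte markers were likewise lowest in treated WT mice: 6 of 6 were measured, Car1 was the most abundant, none was at 0, and their summed level was 2359 and 4089 CPM in the untreated WT mice, 7114 and 7337 in the untreated null mice, 576 and 1379 in the treated WT mice, and 5013 and 1899.6 in the treated null mice. With treatment 2 of the 6 were called in WT (Slc26a3 and Aqp8) and 2 in null mice (Slc26a3 and Car1), all lower in treated mice, against 4.27% and 6.48% of all genes, with Slc26a3 at -3.63 (SE 0.50, adjusted p = 0.00654) and -3.27 (SE 0.49, adjusted p = 0.0126). At day 15 between the genotypes 1 was called, Aqp8, lower in WT, against 1.91% of all genes. Their part in the Pck1 difference was not tested.

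The pentose phosphate pathway draws glucose-6-phosphate off for NADPH and ribose. Pgd, its second NADPH-forming enzyme, had 189 and 202 CPM in the untreated WT mice, 227 and 141 in the untreated null mice, 475 and 429 in the treated WT mice, and 352 and 355 in the treated null mice. All treated mice were above all untreated mice. Pgd rose in WT by 1.21 (SE 0.27, adjusted p = 0.0297) and differed in null mice by 0.94 (SE 0.27, adjusted p = 0.0486), under the fold limit. The WT call was lost without untreated WT mouse 1 or 2 or treated WT mouse 1 or 2 (adjusted p up to 0.168, log2 fold change from 1.13 to 1.28 over the 8 fits). Rpia, which makes ribose-5-phosphate, had 40.0 and 32.2 CPM in the untreated WT mice, 42.8 and 37.7 in the untreated null mice, 57.3 and 70.8 in the treated WT mice, and 157 and 233 in the treated null mice. The treated null mice were above all other mice, and Rpia rose with treatment in null mice by 2.27 (SE 0.28, adjusted p = 0.0123) and was lower in WT than in null mice at day 15, at -1.61 (SE 0.27, adjusted p = 0.0217). The null call was lost without untreated null mouse 2 (adjusted p up to 0.123, log2 fold change from 1.95 to 2.53 over the 8 fits), and the day 15 call without untreated null mouse 1 or 2 or treated WT mouse 1 or 2 (adjusted p up to 0.0997, log2 fold change from -1.87 to -1.29 over the 8 fits).
Taldo1, transaldolase, rose in null mice by 1.11 (SE 0.25, adjusted p = 0.0238) and Rpe, the epimerase, fell by 1.10 (SE 0.32, adjusted p = 0.0494), each with both treated mice on one side of both untreated mice. The Taldo1 call was lost without untreated null mouse 2 or treated null mouse 2 (adjusted p up to 0.177, log2 fold change from 0.95 to 1.26 over the 8 fits) and the Rpe call without untreated WT mouse 1 or 2, untreated null mouse 2, treated WT mouse 1 or 2 or treated null mouse 1 or 2 (adjusted p up to 0.300, log2 fold change from -1.41 to -0.76 over the 8 fits). With GC and length offsets the changes in null mice were 2.51 (adjusted p = 0.0137) for Rpia, 0.70 (adjusted p = 0.105) for Taldo1 and -0.34 (adjusted p = 0.427) for Rpe. The medians of the 7 genes were 0.63 with treatment in WT and 0.94 in null mice.

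Of 10 glycogen genes, 2 were called in null mice with treatment, against 11.8% of all genes: Gbe1, the branching enzyme, fell by 2.16 (SE 0.47, adjusted p = 0.0234) and Pygb, a phosphorylase, rose by 1.24 (SE 0.28, adjusted p = 0.0253), with treated and untreated mice apart. Both calls were lost without untreated null mouse 2 or treated null mouse 1 or 2, with adjusted p values of up to 0.172 and 0.191. Under GC and length offsets the changes were -1.55 (adjusted p = 0.0786) for Gbe1 and 0.88 (adjusted p = 0.0599) for Pygb. In WT mice and between the genotypes at day 15 edgeR and DESeq2 called 0 of them, with 4 and 2 at an unadjusted p under 0.05.

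Hif1a encodes the oxygen-regulated subunit of HIF-1, whose activity is set mainly through protein stability, which was not measured. It had 232 and 259.6 CPM in the untreated WT mice, 399.6 and 583 in the untreated null mice, 162 and 266 in the treated WT mice, and 116 and 170.3 in the treated null mice. The untreated null mice were above all other mice, and Hif1a fell with treatment in null mice by 1.78 (SE 0.33, adjusted p = 0.0167), a call lost without untreated null mouse 2 or treated null mouse 1 (adjusted p up to 0.149, log2 fold change from -2.08 to -1.48 over the 8 fits). Bnip3, a HIF target in mitophagy, had 42.5 and 83.4 CPM in the untreated WT mice, 130.4 and 93.1 in the untreated null mice, 87.4 and 40.9 in the treated WT mice, and 28.7 and 15.9 in the treated null mice. It fell in null mice by 2.33 (SE 0.47, adjusted p = 0.0197), with both treated below both untreated mice, and the call was lost without untreated null mouse 1 or 2 or treated null mouse 2 (adjusted p up to 0.140, log2 fold change from -2.81 to -1.97 over the 8 fits). Egln2, a prolyl hydroxylase that marks HIF for degradation, had 41.6 and 38.9 CPM in the untreated WT mice, 67.3 and 27.0 in the untreated null mice, 142 and 174 in the treated WT mice, and 193 and 212 in the treated null mice. All treated mice were above all untreated mice, and Egln2 rose by 1.97 (SE 0.37, adjusted p = 0.0166) in WT and by 2.07 (SE 0.37, adjusted p = 0.0152) in null mice. The WT call was lost without untreated WT mouse 1 or 2 or treated WT mouse 2 (adjusted p up to 0.119, log2 fold change from 1.82 to 2.11 over the 8 fits), and the null call without untreated null mouse 2 (adjusted p up to 0.123, log2 fold change from 1.59 to 2.91 over the 8 fits). The changes in null mice with GC and length offsets were -1.09 (adjusted p = 0.0456) for Hif1a, -1.74 (adjusted p = 0.0975) for Bnip3 and 1.47 (adjusted p = 0.0347) for Egln2. Of 15 genes of this list, 1 was called with treatment in WT and 3 in null mice, against 7.74% and 11.8% of all genes. Between the genotypes at day 15 edgeR called 0 and DESeq2 1, with 4 at an unadjusted p under 0.05.
Of the 6 Myc and Mondo factors, which also drive glycolytic genes, edgeR called 0 in each comparison. At day 15 between the genotypes 2 had an unadjusted p under 0.05 and DESeq2 called 1. With treatment in WT these counts were 2 and 0, in null mice 0 and 0, at day 0 0 and 0, and for the difference in response 1 and 0.

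The promoters of the genes were searched for the core letters of a pair of elements, in RefSeq sequence of GRCm38.p6 covering the 250 bases before each start, on both strands. All 9 measured genes matched the table, with 14 starts among them. The hypoxia response core, ACGTG or GCGTG, was found in 12 of the 14 windows, against 38.6% of 32851 promoters. It lay before at least 1 start of 9 of the 9 genes, a count per gene that has no such share beside it. The Aldoa windows before starts 2 and 3 overlap and hold the same match, so the 14 windows are not independent. The letters of this core contain CG, so a window rich in CG holds them more often, and CACGTG, the E-box, holds ACGTG on both strands. The heat shock core, GAANNTTC or TTCNNGAA, was found in 1 of the 14 windows, that of Pfkl, against 12.8% of promoters (6.69% and 7.17% for each form). The Pfkl window begins inside an annotated exon of Pfkl, so its matches do not lie in a stretch before the first exon. A match is a run of letters and not a measured binding site.
Shown next, 5′ to 3′ on the gene's own strand with each hypoxia core, read on either strand, in capitals, are the sequence before the second listed start of Pfkfb3 (chr2:11502102-11502340, minus strand), the gene of the 9 called at day 15, and that of Slc16a3 (chr11:120948817-120949052, plus strand), the lactate exporter that was called in the same direction. They are set beside Pgk1 (chrX:106186850-106187099, plus strand) and the first start of Ldha (chr7:46845554-46845803, plus strand), which carry the core and were not called. A window stops before the first annotated exon.
Pfkfb3: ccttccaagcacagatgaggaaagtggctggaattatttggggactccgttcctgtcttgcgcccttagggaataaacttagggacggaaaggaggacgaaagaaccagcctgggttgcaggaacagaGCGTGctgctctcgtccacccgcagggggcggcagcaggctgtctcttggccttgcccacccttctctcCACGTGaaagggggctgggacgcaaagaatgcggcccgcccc
Slc16a3: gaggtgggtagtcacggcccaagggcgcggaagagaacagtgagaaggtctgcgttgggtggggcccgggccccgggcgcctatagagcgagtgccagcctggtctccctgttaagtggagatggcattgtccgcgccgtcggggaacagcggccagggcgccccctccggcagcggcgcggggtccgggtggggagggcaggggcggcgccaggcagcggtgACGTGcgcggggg
Pgk1: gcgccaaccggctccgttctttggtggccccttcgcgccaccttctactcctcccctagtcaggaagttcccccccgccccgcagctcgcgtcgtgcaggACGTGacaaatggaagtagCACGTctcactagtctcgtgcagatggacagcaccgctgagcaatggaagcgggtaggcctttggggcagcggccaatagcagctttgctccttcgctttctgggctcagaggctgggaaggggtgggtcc
Ldha: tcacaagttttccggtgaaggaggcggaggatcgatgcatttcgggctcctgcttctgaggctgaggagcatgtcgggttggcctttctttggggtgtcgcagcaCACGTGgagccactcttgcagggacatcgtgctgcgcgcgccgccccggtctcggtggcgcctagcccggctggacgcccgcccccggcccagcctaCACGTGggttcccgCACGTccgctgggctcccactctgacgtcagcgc
Slc16a3 has 1 more match, in the bases past the end of its printed run. Genes with and without a called difference thus carry the same core.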

How the data were processed

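Distal colon RNA from 8 mice in 4 groups was measured as 1 library per mouse. Per the study's processing notes, the authors aligned reads to mm10 with STAR, and deposited raw counts per gene; the program that counted them is not given in the sources used here. The table holds genes with at least 6 counts in some sample. Counts were analysed in R 4.3.3 with edgeR 4.0.16 (TMM scaling, quasi-likelihood test, all 8 libraries in 1 model of the 4 groups) for genes with a mean normalised count above 5. Adjusted p values follow Benjamini and Hochberg over 14371 genes. DESeq2 1.42.0 was the other tool.

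Members and lists were chosen with earlier results of these data known. The text names all members, Hsf1, their isozymes (some are not reported here), up to 4 called genes with the largest change per list and comparison, the most abundant gene of each marker list, and genes whose genotypes moved oppositely. Genes shown in plots of neighbours, Gapdh among the values spelled out and the printed promoters were picked after values were seen. Lengths, GC content and positions come from GENCODE for GRCm38 and promoter sequence from RefSeq. Alternatives tried were DESeq2, other scalings, no filter, thinned libraries, a stricter adjusted p of 0.005, a replicate block, fits on the compared groups alone, each library left out, and GC and length offsets. The deposited normalised values were not used here.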

Additional observations from a re-analysis of the deposited data

Results flagged for a closer look

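In 4 genes of the members and pathway lists both treated mice moved one way from the untreated mice in WT and the other way in null mice, with no overlap, and the edgeR test of the difference passed for none of them. The share of all genes with such opposite moves was not counted, so whether 4 is more than usual is not known. Within 1 genotype, 62.5% of all genes in WT and 61.3% in null mice had no overlap between treated and untreated mice. Pgk1 had log2 fold changes of 0.58 in WT and -0.82 in null mice, and the difference of 1.40 had an adjusted p of 0.380. For Dlat, a subunit of pyruvate dehydrogenase, they were -0.27 in WT and 0.37 in null mice, and the difference of -0.64 had an adjusted p of 0.607. Pck2, the mitochondrial form of PEP carboxykinase, had -0.45 in WT and 0.73 in null mice, and the difference of -1.18 had an adjusted p of 0.430. Max, the partner of Myc, had -0.56 in WT and 0.52 in null mice, and the difference of -1.08 had an adjusted p of 0.502. Each difference was tested across all 8 samples, with the 2 mice of a group on the same side in both genotypes.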

How the results depend on the processing

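With 2 mice a group the calls are fragile, and depth limits the second untreated library of each genotype most. At day 15 the number of the 9 genes called between the genotypes was 1 and became 0 with the treated libraries alone (6 genes called in all), 0 at an adjusted p under 0.005 (0 in all) and 2 with total counts (Pfkfb3 and Pgk1). The number with an adjusted p under 0.05 was 0, 0 and 2 under the same settings and 2 with DESeq2. With 1 library left out both counts ran from 0 to 1. They were 0 without untreated null mouse 1 or 2, treated WT mouse 2 or treated null mouse 1, where 12, 12, 19 and 30 genes were called in all. With treatment in WT, DESeq2 called 1 gene and gave 1 with an adjusted p under 0.05 (Pfkfb3). With treatment in null mice DESeq2 and total counts each gave 1 gene with an adjusted p under 0.05 (Pgk1), and with 1 library left out both counts ran from 0 to 2, the latter without untreated null mouse 1. A library left alone in its group is assumed to vary like the others. The cause was not tested, beyond the fewer samples where libraries are left out.

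With the replicate number as a replicate block, both counts at day 15 were 0 (343 genes in all). They were 0 at day 0, 0 with treatment in WT, 0 in null mice and 0 for the difference in response. The labels do not say that mice of the same number are paired. With the WT mice at day 0 exchanged in that replicate block, an alternative chosen after seeing the data, the counts with an adjusted p under 0.05 were 2 at day 15, 1 in WT and 4 in null mice, and those called 1, 1 and 1. GC and length offsets, and these with the replicate block, both also chosen after seeing the data, gave the main counts of members called in all 5 comparisons.

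Of the log2 fold changes of members under alternatives, 730 kept their direction and side of the threshold, 13 passed it anew, 6 no longer passed and 52 changed sign, none of them past the threshold. At day 15 Slc2a1 became -0.0046 with DESeq2, -0.0046 with DESeq2 size factors, -0.00030 with no filter, -0.021 with the treated libraries alone, -0.015 with offsets and -0.024 with offsets and block. With total counts Pfkl became 0.0056, Aldoa 0.039 and Ldha 0.0030 at day 15. At day 0, offsets gave -0.16 for Hk1, -0.10 for Pfkl and -0.11 for Aldoa, and with the block -0.15, -0.043 and -0.087. With treatment in null mice Ldha became -0.11 with total counts, -0.0024 with the null libraries alone, -0.020 in thinned libraries, -0.19 with offsets and -0.19 with offsets and block. In thinned libraries Pfkfb3 became 0.17 in null mice, and the Hk2 difference in response -0.038. The cause was not tested.

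Leaving out 1 library gave, at day 15, -0.27 to 0.25 for Slc2a1, -0.62 to 0.46 for Pfkl and -0.40 to 0.19 for Aldoa. At day 0 it gave -0.0068 to 0.84 for Slc2a1, -0.29 to 0.69 for Hk1, -0.20 to 0.74 for Pfkl and -0.30 to 0.62 for Aldoa. With treatment in null mice the ranges were -0.50 to 0.35 for Slc2a1, -0.55 to 0.27 for Pfkfb3 and -0.22 to 0.28 for Ldha. For the difference in response they were -0.84 to 0.0081 for Slc2a1, -0.72 to 0.54 for Hk2, -0.92 to 0.29 for Pfkl, -0.065 to 0.42 for Pfkp and -0.75 to 0.17 for Aldoa. Of the pathway genes called, 4 of 6 were still called at day 15 with the replicate block, 9 of 11 in WT and 14 of 14 in null mice, with offsets 6, 10 and 5, and with total counts 4, 11 and 14. All kept their direction in these fits. Of the group means of isozyme shares under other lengths or depth, 19 moved by less than the spread between mice and 29 by more.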

Other observations

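Markers of other cells in the same libraries give the tissue in which these levels were read. The 8 T and B cell markers, led by Jchain, summed to 1864 and 1662 CPM in the untreated WT mice, 547 and 1396 in the untreated null mice, 3066 and 3308 in the treated WT mice, and 184 and 423 in the treated null mice. In this sum the treated null mice were the lowest and the treated WT mice the highest, but Jchain, with 1706 and 1618 CPM in the untreated WT mice, 471 and 1378 in the untreated null mice, 2747 and 2615 in the treated WT mice, and 46.8 and 237 in the treated null mice, makes up most of it in 7 of the 8 mice, the exception being treated null mouse 1, and went against the rest of the list in null mice. With treatment in WT mice 8 of the 8 had a positive log2 fold change, where 7220 of all 14371 genes did. Their median was 1.86 against 0.0046 over all genes. Both treated were above both untreated WT mice for 7 of them, as for 4456 of all genes. In null mice 7 had a positive log2 fold change, where 7484 of all genes did, with a median of 1.41 against 0.052. Both treated were above both untreated null mice for 6 of them, as for 4454 of all genes. Cd3e rose in both genotypes, by 2.49 (SE 0.50, adjusted p = 0.0201) in WT and by 2.75 (SE 0.52, adjusted p = 0.0171) in null mice, and Jchain in null mice fell by 2.70 (SE 0.70, adjusted p = 0.0365), in 2 of 2 treated mice each. Without untreated null mouse 2 edgeR called no gene with treatment in null mice. The 6 endothelial markers, led by Pecam1, summed to 181 and 117 CPM in the untreated WT mice, 122 and 126 in the untreated null mice, 402 and 361 in the treated WT mice, and 93.2 and 176 in the treated null mice, with treated WT mice above all others. With treatment 1 of the 6, Plvap, was called in WT and the same 1 in null mice, higher in treated mice, where 3.47% and 5.30% of all genes were. In WT 6 of the 6 endothelial markers had a positive log2 fold change with treatment, with a median of 1.23. In null mice 3 were positive and 3 negative, with a median of -0.37. At day 15 between the genotypes 1 of 8 T and B cell markers and 2 of 6 endothelial markers were called, all higher in WT, against 1.25% of all genes. Their part in the differences of glycolysis genes was not tested.

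The 10 fibroblast markers, led by Col1a1, summed to 2885 and 1182 CPM in the untreated WT mice, 947 and 1486 in the untreated null mice, 2511 and 2552 in the treated WT mice, and 496 and 1534 in the treated null mice. Treated null mouse 1 was the lowest and untreated WT mouse 1 the highest, and with treatment in null mice 2 of the 10 were called, both lower (Dcn and Postn), against 6.48% of all genes. The list did not move one way there, with 5 positive and 5 negative log2 fold changes and a median of -0.0025. Both treated null mice were above both untreated ones for 3 of the 10 and below them for 3, against 4454 and 4358 of all 14371 genes. In WT edgeR called 0 and DESeq2 1, where DESeq2 called 1737 of all genes. An unadjusted p under 0.05 was reached by 1 in WT, against 27.6% of all genes. The 6 cell cycle markers, led by Mki67, summed to 602 and 514 CPM in the untreated WT mice, 333 and 496 in the untreated null mice, 968 and 902 in the treated WT mice, and 388 and 887 in the treated null mice, with treated WT mice above the other 6 and treated null mouse 2 close to them. Cdk1 was called higher with treatment in both genotypes, and Top2a in null mice, which is 1 of 6 in WT and 2 of 6 in null mice, against 3.47% and 5.30% of all genes. Skeletal muscle markers, of which 6 of 8 were measured and Ckm was the most abundant, ranged from 18.3 to 47.5 CPM in sum, with Mylpf and Atp2a1 at 0 in at least 1 library. With treatment Ckm was called lower in WT and Acta1 higher in null mice, each 1 of 5 tested, where 7.74% and 11.8% of all genes were called. In each genotype 4 of the 5 had a positive log2 fold change with treatment, with medians of 0.62 in WT and 0.82 in null mice. Ckm in WT thus went against the rest of its list. Squamous epithelium markers, 2 of 7 measured (Krt14, the more abundant, and Krt13, each at 0 in at least 1 library), summed to 1.08 and 0.794 CPM in the untreated WT mice, 0.985 and 0 in the untreated null mice, 5.48 and 12.1 in the treated WT mice, and 3.72 and 17.9 in the treated null mice, so all treated mice were above all untreated mice. Both were called higher with treatment in null mice, Krt13 at 5.18 (SE 1.20, adjusted p = 0.0265) and Krt14 at 3.61 (SE 0.99, adjusted p = 0.0422), and Krt13 in WT, at 6.24 (SE 1.17, adjusted p = 0.0165), all from no more than 11 counts in any untreated mouse, and the shares of all genes called higher are those given for the cell cycle markers. Of red blood cell markers 1 of 5, Alas2, was measured, at up to 3.74 CPM. The part of these lists in the glycolysis differences was not tested.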
